A study of Sus scrofa with 8 samples.

Results

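The S100 calcium-binding proteins were followed through pig heart RNA-seq libraries, from a list of 10 genes: S100A1, S100A2, S100A4, S100A6, S100A8, S100A9, S100A10, S100A11, S100A12 and S100B. All 10 genes were present in the deposited expression table by symbol, in 11 of its 18975 rows, because S100A11 has 2 rows. Of these 11 rows, 9 rows of 8 genes reached 1 FPKM (fragments scaled to transcript length and to the mapped fragments of the library) in at least 2 libraries and entered the tests with 11913 rows in all. S100A2 and S100A9 did not reach that level and are described by their values only.

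The hearts came from male pigs, 6 months old, of 2 breeds kept at 2 altitudes. Tibetan pigs were raised at 3000 m (TH) or at 100 m (TL), and Yorkshire pigs at 3000 m (YH) or at 100 m (YL). Each group had 2 libraries, and each library was made from the pooled RNA of 4 pigs, so that pools, not single animals, are the replicates. The region of the heart that was sampled is not named. The comparisons ask how the breeds differ at each altitude (TH to YH, TL to YL) and how each breed differs between altitudes (TH to TL, YH to YL). Every log2 difference is the group named first minus the other, highland minus lowland or Tibetan minus Yorkshire, so a positive value means higher in the first.

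S100 proteins are small calcium sensors, built from a pair of EF-hand loops, that mostly work as dimers. Calcium opens a binding face on most of them, which then docks onto targets such as annexins, myosin or ion-handling proteins. S100A10 is the exception, since its calcium loops are inactive and it is held open permanently. S100A1 is the cardiomyocyte member, known for raising calcium release and reuptake at the sarcoplasmic reticulum. S100A8, S100A9 and S100A12 are stored in neutrophils and monocytes and act as danger signals once released, and S100B is best known from glia and Schwann cells. In bulk tissue, fewer cells of a type and less RNA per cell cannot be told apart.

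Between 15687000 and 26723000 reads per library fell on genes. YL2 stood apart: 1005 genes reached 1 FPKM in YL2 alone, whereas the other libraries had 30 to 103 such genes each. Its summed FPKM over the 14 kidney markers found of 15 listed was 4994, against 0.427 to 17.2 elsewhere, and it was the highest library for 24.7% of all genes tested. The TH libraries also stood apart, with 2263 and 2146 FPKM of the atrial hormone gene NPPA against at most 108 elsewhere. Of 7 atrial rows tested, 4 were higher and 1 lower in TH to YH at an unadjusted p under 0.05 (limma), beside 16.2% of all genes. In TH to TL, 2 were higher and 0 lower, beside 11.3%. The lower row, MYH6, had 20.6 and 18.4 FPKM in TH, 75.1 to 246 in TL and YH, and 88.4 and 2.60 in YL. Cardiomyocyte markers were abundant everywhere, with sums of 12623 FPKM in YL2 and 20171 to 36052 elsewhere over 10 of the 12 listed genes (MYH7 and MYL2 were not listed by symbol). Results that rest on YL2 are given below with and without it, and the part of the kidney and atrial genes in the S100 values was not tested.

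S100A1 was by far the most abundant S100 gene of these hearts, with a mean of 1268 FPKM over the 8 libraries, the 82nd highest of the table. It made up between 72.2% and 95.03% of the summed FPKM of the 11 rows in each library. S100A10 followed with a mean of 144 FPKM. S100A6 (18.5 FPKM), the chromosome 4 row of S100A11 (16.4 FPKM), S100B (12.7 FPKM) and S100A4 (12.6 FPKM) came next, and their ranges overlapped, so that their order is not resolved. The second row of S100A11 averaged 8.54 FPKM, S100A12 2.42 FPKM, S100A8 0.696 FPKM, S100A9 0.562 FPKM and S100A2 0.0327 FPKM. Of the 11 rows, 8 genes lie together on chromosome 4 of build Sscrofa10.2, between positions 104900201 and 106283881, which is the S100 gene cluster. The 13 genes annotated in that window comprise 11 S100 genes, members of the list or not, with PGLYRP4 and SPRP. S100A6, S100B and the second S100A11 row lie on unplaced scaffolds.

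**Figure D1:**
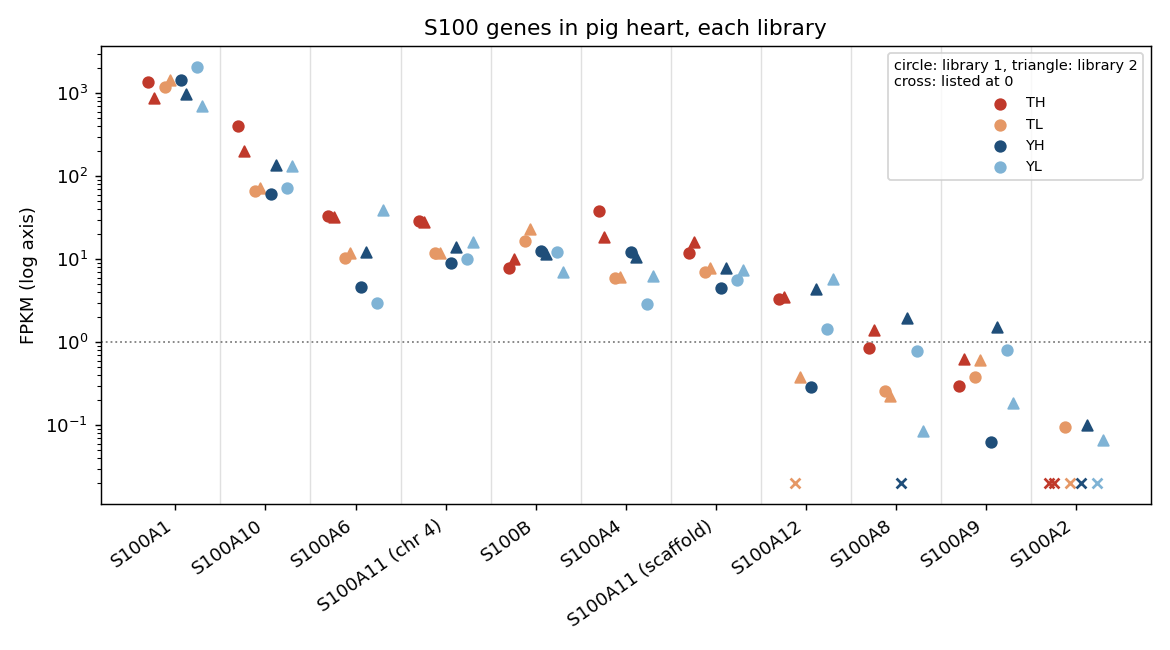
FPKM of each S100 row (log axis) in each of the 8 libraries, with colours for the 4 groups, circles for library 1, triangles for library 2 and crosses for values listed at 0; the dotted line is 1 FPKM. S100A1 stands at 713 FPKM or more in every library, while the TH points of S100A10, S100A4 and both S100A11 rows lie above all others of the same row.

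S100A1 (ENSSSCG00000031053, chr4:104900201-104900536) stood at 1380 and 876 FPKM for TH, 1196 and 1471 for TL, 1434 and 976 for YH, and 2096 and 713 for YL. Its highest and its lowest value were the YL pair, and every group overlapped every other. The read depth was no limit, with 3244 to 7947 reads per library, but the gene model spans only 336 bases, and how fragment length was corrected for so short a model is not given in the sources used here. The fitted difference from TH to YH was -0.11 on the log2(FPKM + 1) scale (95% interval -1.43 to 1.22), and that from TH to TL -0.27 (-1.59 to 1.05). The intervals therefore reach past a change of 1 log2 unit in both directions, and the data do not show that S100A1 was at the same level in the groups. Without YL2 the difference from YH to YL was -0.83, and without YL1 it was 0.73.

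S100A10 (ENSSSCG00000006612, chr4:106272295-106283881), the permanently open member that pairs with annexin A2 at the plasma membrane, carries channels to the cell surface and binds plasminogen there, had 408 and 202 FPKM in TH. The other libraries had 67.4 and 73.3 FPKM for TL, 60.5 and 135 for YH, and 72.5 and 135 for YL. Both TH libraries stood above all 6 others, and the libraries YH2 and YL2 stood above the remaining 4. The log2 difference was 1.65 (SE 0.52) from TH to YH and 2.01 (SE 0.52) from TH to TL, with adjusted p of 0.219 and 0.261 (limma, Benjamini-Hochberg over all genes tested). With any 1 library left out, the difference from TH to YH ran from 1.08 to 2.23. From YH to YL the difference was -0.13, and it turned to 0.32 without YL2. Between 1144 and 6808 reads per library support these values, so that counting error is small beside the spread between libraries.

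The partner of S100A10, ANXA2, had 355 and 275 FPKM for TH, 72.7 and 77.6 for TL, 59.6 and 123 for YH, and 74.2 and 52.7 for YL. It was likewise highest in both TH libraries. The ratio of S100A10 to ANXA2 lay between 0.733 and 1.15 in 7 libraries and was 2.56 in YL2, the library with kidney transcripts. The log2 difference of ANXA2 was 1.86 (SE 0.38) from TH to YH and 2.04 (SE 0.38) from TH to TL, with adjusted p of 0.113 and 0.179 (limma, Benjamini-Hochberg).

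**Figure D2:**
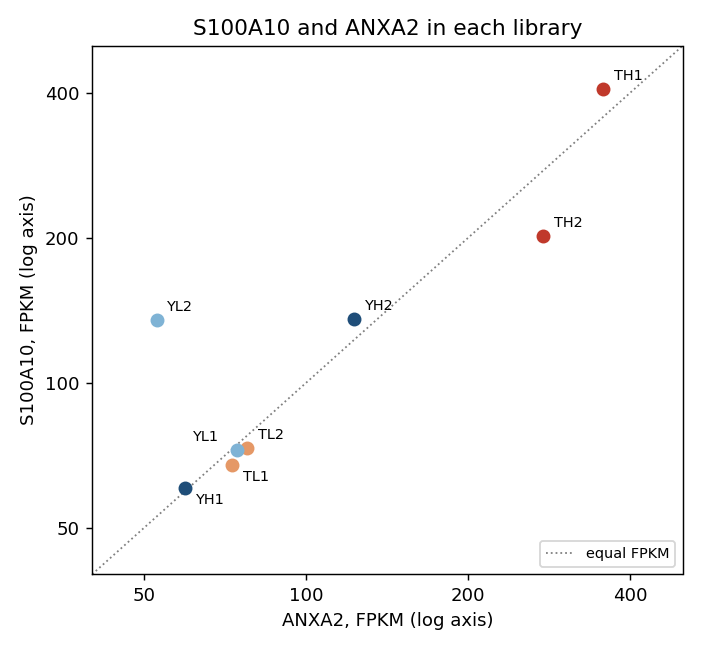
S100A10 against ANXA2 in each library, both in FPKM on log axes, with the dotted line where both are equal. Of the 8 libraries, 7 lie close to the line, with TH1 and TH2 at its upper end, and YL2 lies above it at 135 FPKM of S100A10 and 52.7 FPKM of ANXA2.

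S100A11, a member that binds annexin A1 and takes part in membrane repair and growth control, has 2 rows under 1 symbol, and how reads were split between these copies is uncertain. The chromosome 4 row (ENSSSCG00000006610, chr4:106194307-106200646) had 29.2 and 28.6 FPKM for TH, 12.1 and 12.1 for TL, 9.14 and 14.2 for YH, and 10.25 and 16.04 for YL. The scaffold row (ENSSSCG00000025269, GL894820.2:118711-123975) had 11.8 and 15.99 FPKM for TH, 7.08 and 7.96 for TL, 4.55 and 7.84 for YH, and 5.57 and 7.52 for YL. In both rows the TH libraries were the highest, and the remaining groups overlapped. The chromosome 4 row differed by 1.27 (SE 0.29) on the log2 scale from TH to YH, with an adjusted p of 0.139, the lowest of any S100 row in a pairwise comparison (limma, Benjamini-Hochberg), and by 1.19 (SE 0.29) from TH to TL. The scaffold row differed by 1.07 (SE 0.30) and 0.79 (SE 0.30) in the same comparisons.

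S100A4 (ENSSSCG00000006578, chr4:104908114-104915210), a regulator of non-muscle myosin and of cell motility often used as a fibroblast marker, had 38.1 and 18.8 FPKM for TH, 6.02 and 6.16 for TL, 12.2 and 10.6 for YH, and 2.92 and 6.24 for YL. All 4 highland libraries stood above all 4 lowland libraries, a pattern met by 1.63% of the 11913 genes tested. The log2 difference was 1.97 (SE 0.40) from TH to TL, 1.22 (SE 0.40) from YH to YL and 1.60 (SE 0.28) for altitude over both breeds, the last with an adjusted p of 0.278 (limma, Benjamini-Hochberg). Reads numbered 219 and 110 for TH, 43 and 46 for TL, 52 and 70 for YH, and 23 and 57 for YL. On the read values scaled for depth, the difference from YH to YL was 0.65 in place of 1.22. On FPKM that difference ran from 0.77 to 1.66 with any 1 library left out. The annotation gives S100A3 the same locus, and its reads may not be told apart from those of S100A4. The summed FPKM of the fibroblast list was 632 to 1328 in TH, 1089 to 1280 in TL, 631 to 782 in YH and 438 to 538 in YL. Of its 14 rows tested, 6 were higher in TL than in YL at an unadjusted p under 0.05 (5.9% of all genes), with a median difference of 1.04, and 5 were higher in Tibetan pigs over both altitudes (7.58%). At that level 3 were higher in TH to YH (7.71%), 1 higher and 1 lower in TH to TL (5.81% and 5.53%), 0 in YH to YL (5.97%) and 1 higher at altitude over both breeds (4.72%). The last row was the intermediate filament gene VIM, also expressed by other cells, with 324 and 337 FPKM in TH against 89.4 to 206 elsewhere. The matrix genes DCN (72.4 and 148 FPKM), MFAP5 (55.3 and 170) and COL3A1 (18.2 and 172) had values in TH below or within the range of TL, which was 225 to 266, 159 to 176 and 171 to 213. The part of fibroblasts in the S100A4 values was not tested.

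S100A6 (ENSSSCG00000021084, JH118413.1:7351-15145), also called calcyclin, is linked to proliferating cells and binds CACYBP. It had 33.5 and 32.8 FPKM for TH, 10.5 and 11.9 for TL, 4.68 and 12.4 for YH, and 2.95 and 39.7 for YL. The YL libraries held both the lowest and the highest value, and the TH pair stood above TL and YH. From 6 reads in YL1 to 145 in YL2, this was, as a ratio, the widest spread within a group of any S100 row with a mean above 5 FPKM. The log2 difference was 1.97 (SE 0.99) from TH to YH and 1.49 (SE 0.99) from TH to TL, and the former ran from 1.35 to 2.59 with any 1 library left out. The difference from YH to YL was -0.54 with both YL libraries, 1.14 without YL2 and -2.22 without YL1.

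**Figure D3:**
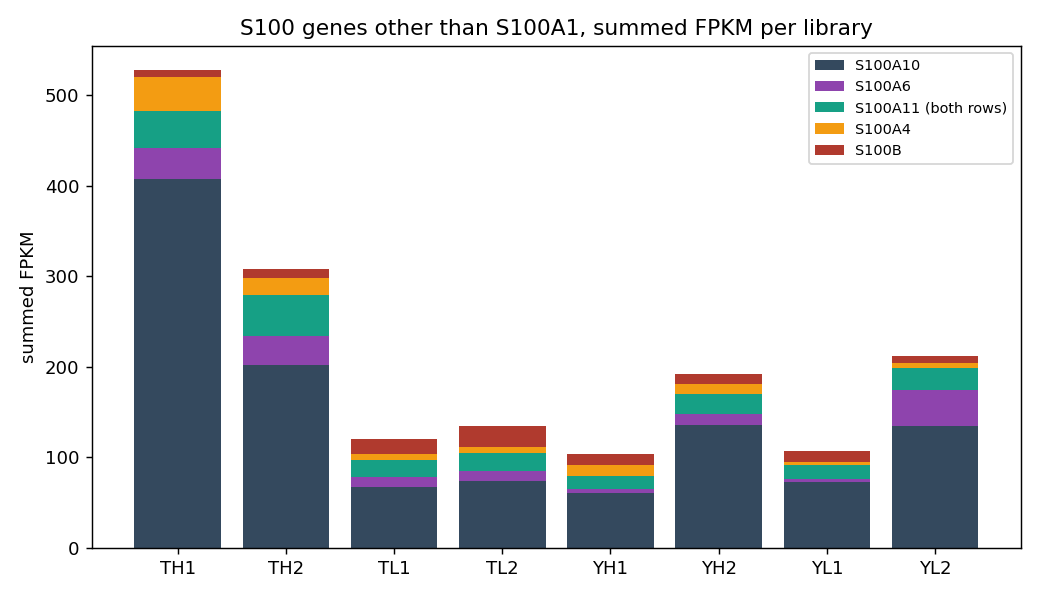
Summed FPKM of S100A10, S100A6, both S100A11 rows, S100A4 and S100B in each library (bars start at 0). S100A10 is the largest segment in every library, and TH1 and TH2 have the tallest bars; the S100A6 segment is tallest in YL2.

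The myeloid members were scarce. S100A12 (ENSSSCG00000006589, chr4:105075279-105076728), a ligand of the receptor AGER, had 3.36 and 3.56 FPKM for TH, 0 and 0.379 for TL, 0.291 and 4.45 for YH, and 1.46 and 5.86 for YL. These values rest on 21 and 20 reads for TH, 0 and 3 for TL, 2 and 33 for YH, and 8 and 58 for YL. The TL libraries were low. In FPKM, though for YL not on the log2 scale, the libraries of each Yorkshire group differed by more than TH and TL did from each other. A count of 0 in TL1 allows up to 0.434 FPKM (3 reads). Over the pooled reads TH exceeded TL 13.2-fold (95% interval 4.22 to 66.7, counting error only), and the fitted difference was 1.92 (SE 0.72) with an adjusted p of 0.385 (limma, Benjamini-Hochberg). For TL minus YL the fitted difference was -1.81 (SE 0.72), lower in TL, and -1.07 without YL2.

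S100A8 (ENSSSCG00000006590, chr4:105091815-105092868) and S100A9 (ENSSSCG00000006588, chr4:105063476-105066298) form calprotectin, the calcium- and zinc-binding heterodimer of neutrophils. S100A8 had 6 and 9 reads for TH, 2 and 2 for TL, 0 and 17 for YH, and 5 and 1 for YL. S100A9 had 4 and 8 reads for TH, 6 and 11 for TL, 1 and 28 for YH, and 10 and 4 for YL. In both genes YH1 was the lowest library and YH2 the highest, so the gap within YH exceeded the gap between any group means. The fitted difference of S100A8 was 0.77 (SE 0.51) from TH to TL and 0.30 (SE 0.51) from TH to YH. The count of 0 for S100A8 in YH1 allows up to 0.387 FPKM. S100A2 (ENSSSCG00000006580, chr4:104922474-104926484), an epithelial member, had 0 or 1 read in each library, 3 reads in all, which allows up to 0.383 FPKM in the library where a count of 0 says least.

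The wider list of neutrophil and monocyte markers had 18 of its 20 genes in the table, with summed FPKM of 85.7 to 92.2 in TH, 70.8 to 74.8 in TL, 97.9 to 123 in YH and 53.0 to 92.7 in YL. TYROBP, FCER1G and SPI1 carried most of that sum, and the defining neutrophil genes MPO (at most 0.0286 FPKM), ELANE (at most 0.259), CAMP (at most 0.0553) and CXCR2 (at most 0.328) were at or near 0. LTF, another neutrophil gene, reached 1.39 FPKM in YL2, against at most 0.196 elsewhere. YL2 had the highest S100A12 and the kidney transcripts, but the lowest sum of this list, at 53.0 FPKM. The monocyte gene FCN1 had 2.64 and 2.45 FPKM in TH against 0.195 to 1.58 elsewhere. Of the 10 rows of the list that were tested, 5 were higher at altitude over both breeds at an unadjusted p under 0.05 (4.72% of all genes), with a median difference of 0.42. At that level 2 were higher in TH than in TL (5.81%), and 2 were higher and 2 lower in TH than in YH (16.2% in either direction). The part of these cells in the S100A8, S100A9 and S100A12 values was not tested.

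S100B (ENSSSCG00000026140, GL896219.1:23648-28092) had another order of groups than S100A10. Its levels were 7.79 and 9.98 FPKM for TH, 16.7 and 23.4 for TL, 12.8 and 11.6 for YH, and 12.3 and 7.08 for YL. Both TL libraries stood above all 6 others, a pattern met by 4.91% of the genes tested, and the TH pair stood below TL and YH. The log2 difference was -1.08 (SE 0.31) from TH to TL and 1.0 (SE 0.31) from TL to YL, with adjusted p of 0.288 and 0.396 (limma, Benjamini-Hochberg). Without YL2 the difference from TL to YL was 0.64. Reads numbered 207 to 801 per library. The glial and Schwann cell list, with 11 of 13 genes in the table, summed to 42.3 and 68.4 FPKM for TH, 35.7 and 38.8 for TL, 37.0 and 37.3 for YH, and 43.7 and 35.7 for YL. Of its 6 rows tested, 1 was higher in TL than in YL at an unadjusted p under 0.05 (5.9% of all genes) and 0 passed that level in TH to TL (11.3%). The most abundant of them, NCAM1, had 29.8 and 56.1 FPKM in TH against 18.4 and 24.8 in TL, and the myelin gene MBP had 7.39 and 3.801 FPKM in TL against 18.5 and 7.20 in YL. ERBB3 had 12.7 FPKM in YL2 against at most 1.12 elsewhere, and L1CAM had 3.42 and 3.54 FPKM in TL against 0.818 to 3.27 elsewhere. SOX10, a defining gene of that list, was near 0 (at most 0.143 FPKM), and the part of these cells in the S100B values was not tested.

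**Figure D4:**
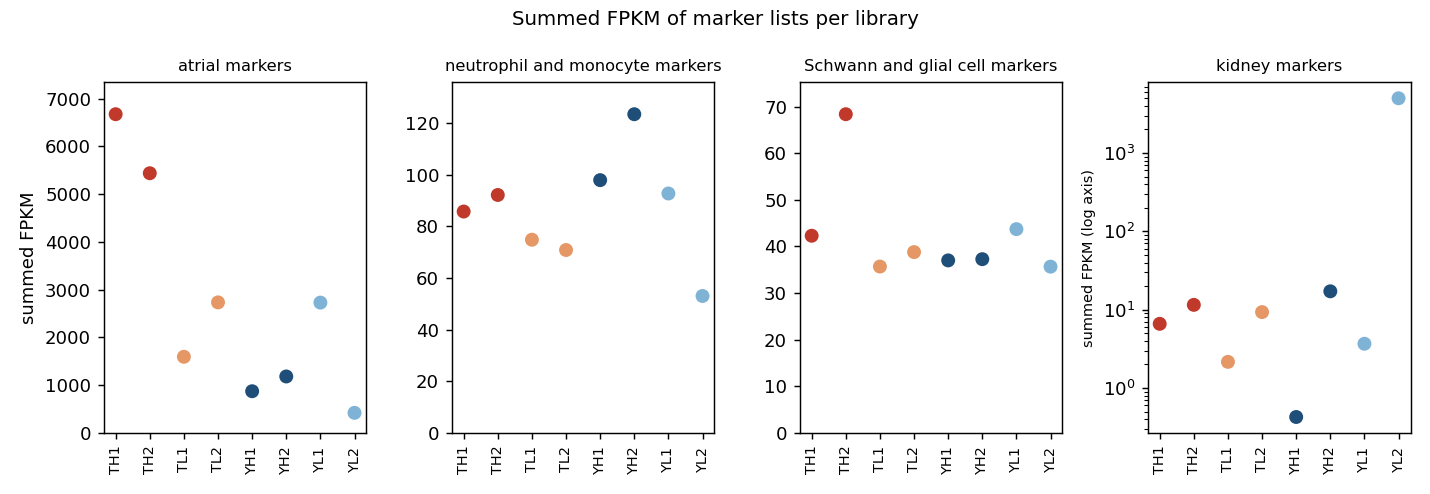
Summed FPKM of 4 marker lists in each library (the kidney panel has a log axis). The atrial sum is highest in TH1 and TH2, the neutrophil and monocyte sum in YH2, and the Schwann and glial sum in TH2. The kidney sum is highest in YL2, at 4994 FPKM against at most 17.2 elsewhere. Within the atrial list, MYH6 was lower in TH than in TL and YH.

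In the comparison of TH to YH, 0 of the 9 S100 rows were called at an adjusted p under 0.01 and an absolute log2 fold change over 1 (limma), beside 0.0336% of all genes tested. At an unadjusted p under 0.05 there were 4 rows, beside 16.2% of all genes, and all 4 were higher in TH, as 7.71% of all genes were: S100A4, S100A10 and both rows of S100A11. The median log2 difference of the 9 rows was 1.07, against -0.03 over all genes. The groups did not overlap in 5 rows with TH higher, where 25.2% of all genes did so, and in 1 row with TH lower, S100B, where 27.3% did so. With libraries scaled to a common FPKM sum, 0 rows had an unadjusted p under 0.05 in TH to YH, where 854 of 11913 genes did.

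In the comparison of TH to TL, 0 of the 9 rows were called (limma), beside 0.0504% of all genes, and 6 had an unadjusted p under 0.05, beside 11.3% of all genes. S100A4, S100A10, S100A12 and both S100A11 rows were the 5 that were higher in TH, beside 5.81% of all genes, and S100B was lower, beside 5.53%. The median difference was 1.19, against -0.02 over all genes. TH lay above TL without overlap in 7 rows, beside 24% of all genes, and below it in S100B, beside 24.5%. Under scaling to a common FPKM sum, 0 rows had an unadjusted p under 0.05 in TH to TL, where 293 of 11913 genes did. TH to YH and TH to TL share the TH libraries, so the values are set side by side and are not independent of each other.

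From TL to YL, 0 of the 9 rows were called (limma), beside 0.00839% of all genes, and 2 had an unadjusted p under 0.05, beside 8.94%: S100B was higher in TL (5.9% of all genes) and S100A12 was lower (3.04%). The same rows did not overlap between the groups, S100B being higher as 23.8% of all genes were and S100A12 lower as 17.8% were. The median difference was -0.06, against 0.02 over all genes. From YH to YL, 0 rows were called (limma), as was 0% of all genes, and S100A4 alone had an unadjusted p under 0.05, beside 5.97% of all genes, or 4.39% in the direction of higher in YH, and 0 rows did so on the scaled read values or with libraries scaled to a common FPKM sum. It was also the one row with YH above YL without overlap, beside 21.9% of all genes. The median difference there was -0.09, against 0.03 over all genes.

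**Figure D5:**
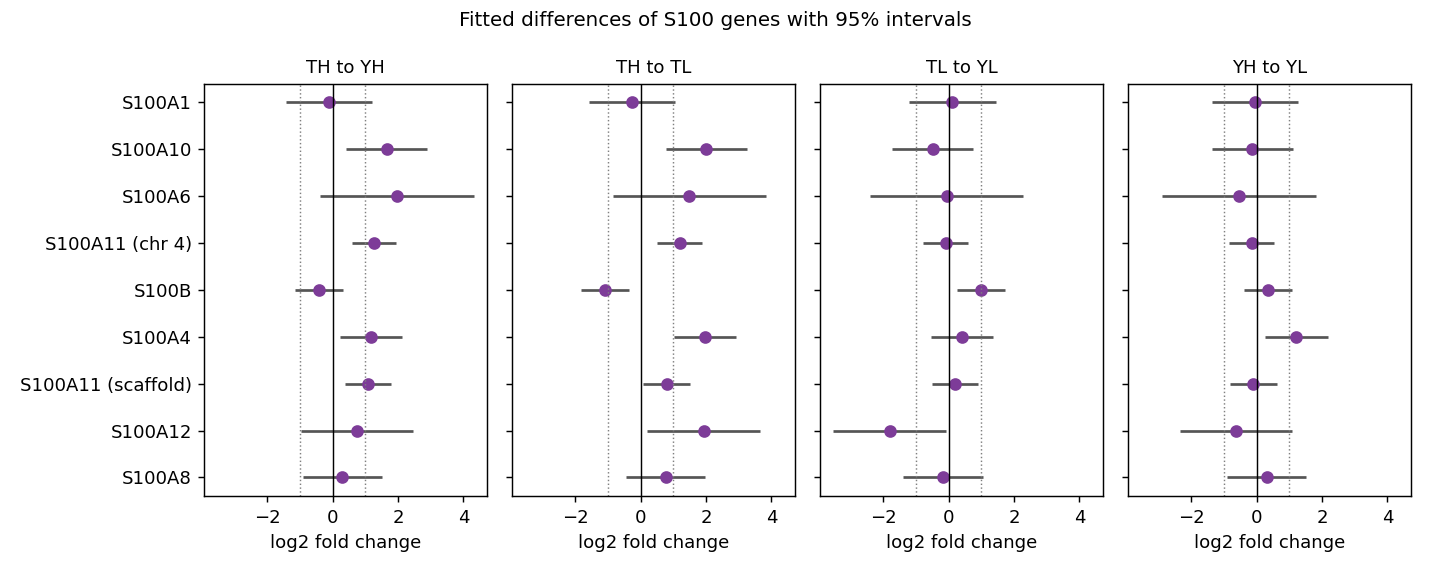
Fitted log2 differences of the 9 S100 rows tested, with 95% intervals, in the 4 pairwise comparisons; dotted lines mark 1 log2 unit in each direction. In TH to YH and TH to TL the intervals of S100A10, S100A4 and both S100A11 rows lie above 0, whereas most intervals in the other panels include 0.

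Over the 2 by 2 design, the breed difference over both altitudes was called in 0 of the 9 rows (limma), beside 0.0504% of all genes, and 3 rows had an unadjusted p under 0.05, beside 13.5%. These were S100A4 (0.79) and the rows of S100A11 (0.59 and 0.63), all higher in Tibetan pigs, beside 7.58% of all genes in that direction. With libraries scaled to a common FPKM sum, where the median of all genes was -0.39, they stood at 0.10 for S100A4, -0.045 for the chromosome 4 row of S100A11 and 0.025 for its scaffold row. The altitude difference over both breeds was called in 0 rows (limma), beside 0.0336%, and had an unadjusted p under 0.05 in S100A4 (1.60), S100A10 (0.94) and the chromosome 4 row of S100A11 (0.52), beside 7.22% of all genes, or 4.72% in the direction of higher at altitude. The interaction, which tests whether the altitude difference of Tibetan pigs differs from that of Yorkshire pigs, was called in 0 rows (limma), beside 0.0336%, and 4 rows had an unadjusted p under 0.05, beside 10.9%. They were S100A10 (2.14, SE 0.73), the chromosome 4 row of S100A11 (1.35, SE 0.41), S100A12 (2.55, SE 1.02, and 1.52 to 3.59 with any 1 library left out) and, with the opposite sign, S100B (-1.43, SE 0.43), beside 3.78% and 7.16% of all genes in these directions. Their adjusted p ran from 0.357 to 0.440 (limma, Benjamini-Hochberg), so no difference between the breeds' altitude responses passed the threshold. Under scaling to a common FPKM sum, 0 rows had an unadjusted p under 0.05 in the interaction, where 405 of 11913 genes did.

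The rows of S100A4, S100A10 and S100A11 were the 4 in which both TH libraries stood above all 6 others, as 10.1% of all genes did. Between 4 and 5 rows met this pattern when any 1 library was left out, and 4 on the scaled read values, while the share of all genes rose to 16.7% without TH1 and to 27% without TH2. When each library was divided to a common FPKM sum, 0 rows met it, beside 0.336% of all genes. Under that scaling the median difference of all genes was -0.50 log2 units in TH to YH and -0.27 in TH to TL, against -0.03 and -0.02 without it, because TH1 had a summed FPKM of 8559104 against 1563940 to 4017846 in the other libraries. Relative to that median, S100A10 differed by 1.16 in TH to YH and 1.62 in TH to TL, S100A6 by 1.39 and 1.07, S100A4 by 0.71 and 1.41, and the chromosome 4 row of S100A11 by 0.81 and 0.81. S100B stood at -0.51 and -1.03 in the same comparisons.

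Among the members themselves, S100A10 and the chromosome 4 row of S100A11 followed each other most closely of all pairs of different genes among the 7 rows with a mean of at least 5 FPKM, with a Pearson correlation of log2(FPKM + 1) of 0.94 over the 8 libraries and over the 7 without YL2. S100A6 correlated with that S100A11 row at 0.84, and at 0.93 over the 7 libraries without YL2. S100B correlated negatively with S100A10 (-0.70, and -0.77 without YL2) and S100A1 with S100A6 (-0.77, and -0.69 without YL2). These coefficients describe 8 libraries that share groups and depth, and they carry no test.

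The genes most like each member were sought among 4270 genes with a mean of at least 10 FPKM. S100A10 was most like FKBP11 (0.99), a peptidyl-prolyl isomerase, LYPLA2 (0.98) and PPIA (0.97), and the chromosome 4 row of S100A11 was most like the GTPase gene RHOA (0.98), RPL3 (0.98) and PPIA (0.97). The scaffold row of S100A11 was most like RHOA (0.95), NPPA (0.94) and the other S100A11 row (0.94). S100A6 was most like the actin-severing CFL1 (0.97), the proliferation marker MKI67 (0.96) and MAGED2 (0.96). S100A4 was most like the unnamed gene ENSSSCG00000021783 (0.98), IFT43 (0.93) and PRPS2 (0.92). S100A1 was most like ZFAND5 (0.98), TTC1 (0.96) and DAPL1 (0.96), and S100B like ADSSL1 (0.96), CRYBG3 (0.94) and the sarcoplasmic reticulum gene SRL (0.94). Without YL2 these correlations ran from 0.92 to 0.99.

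Annexins are the best known partners of S100 proteins. Of 5 annexin genes, 0 were called in TH to YH or TH to TL (limma), beside 0.0336% and 0.0504% of all genes tested, and 2 had an unadjusted p under 0.05 in each, ANXA2 and ANXA5, both higher in TH, beside 16.2% and 11.3% of all genes. ANXA5 had 143 and 181 FPKM in TH against 49.1 to 105 elsewhere. ANXA6 had 33.3 and 55.2 FPKM in TH against 23.3 to 57.3 elsewhere, and ANXA11 had 77.7 and 52.0 against 45.02 to 72.7. ANXA1, the partner of S100A11, had 25.6 and 44.5 FPKM in TH against 14.7 to 34.5 elsewhere.

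Of 20 intracellular targets, 18 were in the table, 17 were tested and 0 were called in TH to YH or TH to TL (limma), beside 0.0336% and 0.0504% of all genes. At an unadjusted p under 0.05 there were 4 and 2 of the 17, beside 16.2% and 11.3% of all genes. In TH to YH, SUGT1, IQGAP1 and PPP5C were higher and the intermediate filament gene SYNM lower at an unadjusted p under 0.05, with log2 differences of 0.81, 0.59, 0.66 and -1.52. In TH to TL, FKBP4 (0.67) was higher and SYNM (-1.16) lower at that level. Of the calcium-handling targets of S100A1, PLN, the brake on the calcium pump, had 1121 and 1006 FPKM in TH against 822 to 2195 elsewhere, and the release channel gene RYR2 had 39.8 and 33.9 against 21.0 to 56.4. The lowest of both was YL2, and neither reached an unadjusted p under 0.05. CACYBP, the partner of S100A6, had 59.4 and 37.2 FPKM in TH against 23.8 to 38.1 elsewhere, and TPM1 had 4582 and 3086 against 1579 to 3834.

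Of 12 receptors of extracellular S100 proteins, 10 were in the table and 8 rows were tested, 0 of them called in TH to YH or TH to TL (limma), beside 0.0336% and 0.0504% of all genes. At an unadjusted p under 0.05 there were 2 and 1 of the 8, beside 16.2% and 11.3% of all genes. MCAM, a receptor of S100A8 and S100A9, had 37.0 and 42.9 FPKM in TH against 12.01 to 28.8 elsewhere, with an unadjusted p under 0.05 and the first group higher in each of the 4 pairwise comparisons. BSG was lower in TH at that level in TH to YH, at 280 and 269 FPKM against 323 to 491 elsewhere. AGER, the receptor for advanced glycation end products that S100A12 and S100B bind, stood at 0.0740 to 0.283 FPKM, and TLR4 at 1.22 to 2.90. CD36, ALCAM and NPTN, the other abundant receptors, had values in TH within the range of the other libraries.

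Of 12 further genes listed with the family, 6 were in the table and 3 were tested, among them S100PBP, which encodes a protein that binds S100P and is no S100 protein itself. In the 4 pairwise comparisons 0 were called (limma), beside 0% to 0.0504% of all genes. At an unadjusted p under 0.05 there were also 0, beside 5.97% to 16.2%. With 3 rows this does not show that these genes were unchanged. S100A16, a widely expressed member, had 68.1 and 66.3 FPKM for TH, 59.5 and 63.0 for TL, 62.2 and 60.6 for YH, and 59.7 and 37.8 for YL, so 7 of the 8 libraries lay close together and YL2 was low. S100A14, an epithelial member, had 0.839 to 5.44 FPKM with the highest value in YL2, the library that was also highest for epithelial markers. S100A3, at the locus of S100A4, reached at most 0.511 FPKM, in TH1.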

How the data were processed

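RNA-seq of 8 pooled heart libraries in 4 groups was analysed from the deposited table. Per the labels and methods, the authors aligned reads to Sscrofa10.2 with TopHat2 2.0.9 (Bowtie 0.12.5), and tested with DESeq 1.10.1. The table gives, per library, FPKM as the authors computed it and a signal, a read value the authors scaled by 1 factor per library. Dividing this signal by its commonest lowest value gave whole reads (within 0.02) for 99.7% to 99.8% of low values, and reads are quoted on that basis. The 8 columns of the authors' group means and ratios were not used. Sample groups were taken from titles. The descriptions of YL1 and YL2 point to the TL file, against their titles, breed and source name, which all give YL, and this was not resolved.

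Values were compared on log2(FPKM + 1), which understates changes of low genes, with limma 3.58.1 (R 4.3.3, trend, 1 term per group, 4 residual degrees of freedom) over the 11913 rows that reached 1 FPKM in 2 or more libraries. Calls needed a Benjamini-Hochberg adjusted p under 0.01 and an absolute log2 fold change over 1. In simulated data, 68.5% of 200 genes changed by 3 log2 units were called in TH to YH, with 1 false call. The simulated spread was equal in all groups, and pairwise S100 differences reached at most 2.01, so changes of that size were not simulated. With 2 against 2 libraries an exact permutation test cannot go below p = 0.333. Intervals on reads are exact at 95% and cover counting error only.

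Named genes were all S100 rows, every other S100 family gene in the table, called genes and at most 4 of the most abundant of each partner, target, receptor and marker list (not all were described), and the 3 genes most correlated with each member of at least 5 FPKM. Further genes were named after their values were seen. The members and lists were chosen with earlier results of these data known. The alternatives were another pseudocount, filters, scalings, no trend, a replicate block, fits of 2 groups, another threshold, the scaled read values and leaving out each library. Plots were drawn with matplotlib 3.10.9. Sequences were not used here.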

Additional observations from a re-analysis of the deposited data

How the results depend on the processing

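No S100 row was called in any of the 7 comparisons under any alternative run, 18 for each pairwise comparison and 17 for the others, of which the filter at a mean of 10 FPKM tested 6 of the 9 rows. The fitted difference kept its sign in every alternative for 27 of 48 results, among them 8 of 9 rows in TH to TL, 6 of 9 in TH to YH and 7 of 9 in the interaction, but 1 of 9 in YH to YL. Scaling to a common FPKM sum turned S100A8 (-0.13) and S100A12 (-0.077) in TH to YH, which stood at 0.38 and 0.43 relative to the median of all genes, S100A1 (-0.22), S100A4 (-0.0031) and the scaffold row of S100A11 (-0.14) in TL to YL, which stood at 0.010, 0.23 and 0.089 relative to that median, S100A8 in the interaction (-0.067, relative 0.20) and the chromosome 4 row of S100A11 for breed over both altitudes (-0.045, relative 0.34), and left 0 rows with TH above all other libraries. For breed and altitude 3 results were followed through the alternatives, and under this scaling the breed values of S100A1 (-0.65), S100A8 (-0.095), S100A10 (-0.079) and S100B (-0.20) also turned below 0, at -0.27, 0.29, 0.31 and 0.19 relative to the median. A pseudocount of 0.1 turned S100A6 in TL to YL (0.027), and the scaled read values, an alternative chosen after seeing the data, turned S100A1 there (-0.0020). With each library left out in turn, the differences that changed sign ran in TH to YH from -0.43 to 0.22 (S100A1), -0.49 to 1.08 (S100A8) and -0.29 to 1.79 (S100A12), and in TH to TL from -0.60 to 0.058 (S100A1). In TL to YL they ran from -0.66 to 0.89 (S100A1), -0.030 to 0.86 (S100A4), -1.75 to 1.62 (S100A6), -0.52 to 0.19 (S100A8), -0.38 to 0.22 (S100A11, chromosome 4) and -0.0024 to 0.37 (S100A11, scaffold). In YH to YL they ran from -0.83 to 0.73 (S100A1), -2.22 to 1.14 (S100A6), -0.48 to 1.09 (S100A8), -0.70 to 0.45 (S100A10), -0.45 to 0.14 (S100A11, chromosome 4), -0.43 to 0.24 (S100A11, scaffold), -1.67 to 0.41 (S100A12) and -0.015 to 0.71 (S100B), and in the interaction from -0.9998 to 0.56 (S100A1) and -0.32 to 1.24 (S100A8). The count of rows with TH above all others ran from 4 to 5. The cause of these changes was not tested. Where a group kept 1 library, that library was assumed to vary like the other groups. The lowest adjusted p of any S100 row was 0.0260 (limma, Benjamini-Hochberg), for the interaction of S100A6 without YL1, where the difference was 3.71 against 0.35 without YL2, and over the alternatives it reached 0.9999. Replicate numbers did not pair the libraries: the correlation across genes of the libraries' deviations lay between -0.08 and 0.12 for the 6 pairs of groups. With the replicate number as a block, S100 calls stayed at 0 and fitted differences were the same, and the rows at an unadjusted p under 0.05 went from 4 to 5 in TH to YH and in the interaction. All genes at that level went from 1928 to 1921 and from 1303 to 1287 of 11913 in these comparisons. Scaling to a common FPKM sum took them from 4 to 0 there and from 6 to 0 in TH to TL, from 3 to 1 for breed and for altitude, and from 2 to 1 in TL to YL. Median-ratio scaling took the S100 rows from 3 to 1 for breed and altitude and from 6 to 4 in TH to TL. All genes then went from 1608 to 1557 for breed, 860 to 836 for altitude and 1351 to 1414 in TH to TL. In YH to YL the 1 row was lost under the common sum and the scaled read values, where all genes went from 711 to 414 and to 724. With 1 library left out, the counts moved for the S100 rows and for all genes, and are not given because a group then kept 1 library. The planned count models on whole reads, 6 alternatives, were not run because the scaled read values are not whole reads throughout. S100A8, S100A9, S100A12 and S100A2 rest on 0 to 58 reads per library, which limits what can be seen of them.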

Other observations

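Of the other targets bound by S100A10, the scaffold gene AHNAK had 4.99 and 8.96 FPKM for TH, 2.03 and 2.82 for TL, 5.21 and 9.17 for YH, and 10.5 and 3.53 for YL. TL was the low group, and TH overlapped both Yorkshire groups, unlike S100A10 itself. The potassium channel gene KCNK3 reached at most 0.299 FPKM. Titin (TTN), a target of S100A1 in the sarcomere, had 56.4 FPKM in TH1 and 12.9 in TH2 against 7.69 to 25.7 elsewhere, and the myosin gene MYH9, the target of S100A4, had 29.4 and 46.7 in TH against 12.3 to 27.2 elsewhere.

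Of the 11 listed macrophage markers, 9 were in the table, and they summed to 36.5 and 54.8 FPKM in TH against 68.7 to 117 elsewhere. The complement genes C1QA and C1QC carried most of that gap, with 4.49 and 13.1 FPKM for C1QA and 6.17 and 20.4 for C1QC in TH against 22.9 to 45.5 and 22.9 to 53.3 elsewhere. CD68 had 5.39 and 5.95 FPKM in TH against 2.89 and 2.60 in TL, and of the 7 rows tested 1 was higher and 3 were lower in TH than in TL at an unadjusted p under 0.05 (limma), beside 5.81% and 5.53% of all genes. Red cell markers were high in TH, with sums of 1629 and 3100 FPKM against 531 to 1402 elsewhere. The part of either cell type in the S100 values was not tested.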
